A study of Mus musculus with 2 samples.

Results

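The genes described here encode the nuclear subunits of oxidative phosphorylation, measured after stimulation with double-stranded RNA in 2 cultures of RAW264.7, an established mouse macrophage line. They were chosen by name: symbols that begin with Nduf, Uqcr or Atp5, symbols that begin with Cox and a digit from 4 to 8, and Sdha, Sdhb, Sdhc and Sdhd. The rule found 89 of the 22180 genes that had a probe set of their own on the array. They comprise 32 subunits of complex I, 4 of complex II, 7 of complex III, 18 of complex IV (8 of them isoforms limited to some tissues), 17 of complex V, 8 assembly factors of complex I, the supercomplex factor Cox7a2l and 2 pseudogenes. Ndufa4 and Ndufa4l2 carry complex I names but were placed with complex IV, of which the Ndufa4 protein is a subunit. A further 9 symbols that the rule finds were read only by probe sets that the array's gene table assigns to several genes and are given no values.

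There was 1 array of wildtype RAW264.7 cells and 1 of RAW264.7 cells labelled HuR-deficient. HuR, the product of Elavl1, binds AU-rich and U-rich stretches of mRNAs and affects their stability. The title of the second sample calls its cells HuR-KO, a knockout. The sources used here do not give how the knockout was made or whether the cells come from a single clone. Both groups were stimulated for 8 hours with poly(I:C) of high molecular weight, a double-stranded RNA analogue, carried by a lipofectamine reagent and at a labelled dose of 1 mg/ml. No unstimulated cells were analysed here, so the response to the stimulus is not measured. With 1 array per group there are no replicates, no p-value can be given and the spread between cultures is unknown. Values are log2 signals. Where a gene is given a pair of signals, the wildtype array comes first and the array labelled HuR-deficient second, and every difference is the second minus the first.

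Elavl1 itself had signals of 7.68 and 7.75, so it does not check the label. Of 11 measured macrophage markers, 10 passed the filter on signal (a log2 signal of at least 4.38 on either array), as did 11905 of all 22180 genes. Lyz2 (12.34 and 12.20), Cd68 (11.55 and 11.34) and Csf1r (6.67 and 6.61) were well above it on both arrays. Itgam, with 4.86 and 4.53, was close to it. Mrc1 did not pass. Adgre1, the F4/80 antigen of macrophages, had 4.94 and 6.51 (difference 1.57), a larger difference than that of any subunit gene, while the other 9 that passed lay between -0.33 and 0.33. The part of this marker difference in the results was not tested. Of 19 measured markers of other cell types, 6 passed, and the highest signal among them was 4.74. In bulk RNA, fewer cells of a type and less RNA per cell cannot be told apart.

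Oxidative phosphorylation is the process by which mitochondria turn the energy of NADH and succinate into ATP. Complexes I and II pass electrons to ubiquinone, complex III passes them on to cytochrome c and complex IV to oxygen. Complexes I, III and IV pump protons as they do so, and complex V, the ATP synthase, lets the protons flow back to make ATP. Most subunits are encoded in the nucleus and a few in mitochondrial DNA, so each complex except complex II is built from both. In macrophages, inflammatory stimulation is known to lower respiration and raise glycolysis, and complex II, which is also the succinate dehydrogenase of the tricarboxylic acid cycle, is a known point of control there.

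Some of the nuclear genes carry promoter motifs known from respiratory genes, which the choice by name did not use. Promoters of respiratory genes are known for sites of nuclear respiratory factor 1 (NRF1), of GABP, an ETS factor also called nuclear respiratory factor 2 in humans, and of YY1, so letters typical of each were searched on both strands in the RefSeq promoter table of assembly GRCm38.p6, whose windows span 250 bases before to 50 bases after the annotated start. By gene identifier, 72 of the 89 members matched the table, with 77 windows. The NRF1 letters, TGCGCA and GCGC with any base between them, were in 13.0% of the member windows and in 3.37% of the 21262 windows of protein-coding genes. The GABP letters CCGGAAG were in 24.7% and 11.6%, and the YY1 letters AAGATGGC in 13.0% and 3.05%. Over all 32851 windows of the table, the shares were 2.44%, 8.86% and 2.75%. Of the 72 genes, 34 had at least 1 of the 3 motifs and the others had none. The median GC content was 58.3% in the member windows, 56.3% in those of protein-coding genes and 52.7% in all. The part of GC content in these shares was not tested. No motif contains another, and a match describes the sequence only. The YY1 matches lay close to the start: 8 of 10 began at or after it, as against 7 of 22 GABP matches and 3 of 12 NRF1 matches.

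The following stretches, the 120 bases just before the annotated start, 5′ to 3′ on the strand of the gene, show these letters where they occur, in 4 members with matches, and the start regions of 3 members with large differences, chosen after their values were seen. Capitals mark a motif match. Sdha (chr13:74350241-74350360, minus strand) has a pair of NRF1 matches, Sdhd (chr9:50603850-50603969, minus strand) an NRF1 and a GABP match, Cox6a1 (chr5:115348959-115349078, minus strand) the same pair, and Atp5j (chr16:84834977-84835096, minus strand) a YY1 and a GABP match.
Sdha: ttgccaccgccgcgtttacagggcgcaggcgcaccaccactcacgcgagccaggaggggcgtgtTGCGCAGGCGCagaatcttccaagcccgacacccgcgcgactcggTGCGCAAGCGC
Sdhd: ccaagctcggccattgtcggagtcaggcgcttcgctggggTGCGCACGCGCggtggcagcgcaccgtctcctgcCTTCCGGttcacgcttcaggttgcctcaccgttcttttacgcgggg
Cox6a1: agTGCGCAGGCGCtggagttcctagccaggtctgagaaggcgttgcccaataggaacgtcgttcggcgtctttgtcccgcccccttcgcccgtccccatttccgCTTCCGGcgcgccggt
Atp5j: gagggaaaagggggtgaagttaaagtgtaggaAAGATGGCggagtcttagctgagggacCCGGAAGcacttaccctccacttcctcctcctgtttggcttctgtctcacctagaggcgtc

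Ndufaf3 (chr9:108567437-108567556, minus strand), Cox5b (chr1:36691367-36691486, plus strand) and Cox7b (chrX:106015580-106015699, plus strand) have the highest, second highest and lowest differences among the members that passed the filter. None of the 3 motifs is in these letters or in the rest of their windows. Other members with large differences do hold matches in their windows: Uqcrc1 an NRF1 match (2 overlapping readings of the same letters), Cox8a GABP matches, Ndufs7 a YY1 match and Cox6a1 the pair shown above, while Atp5d and Ndufc2 hold none.
Ndufaf3: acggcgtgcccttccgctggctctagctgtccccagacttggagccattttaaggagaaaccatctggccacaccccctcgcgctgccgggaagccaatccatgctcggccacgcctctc
Cox5b: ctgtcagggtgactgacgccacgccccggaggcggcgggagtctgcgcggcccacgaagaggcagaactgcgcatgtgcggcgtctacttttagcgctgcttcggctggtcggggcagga
Cox7b: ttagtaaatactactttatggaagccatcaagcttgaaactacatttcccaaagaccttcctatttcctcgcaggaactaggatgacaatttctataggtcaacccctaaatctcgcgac

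Over the whole set, the subunit genes differed little between the arrays. Of the 89 members, 44 were higher in the array labelled HuR-deficient (background 49.2% of all 22180 genes) and 44 lower (background 46.3%), Ndufs5 had the same value on both, and the median difference was 0. The 81 members that passed the filter had a median of 0.0018, with 41 above 0 (background 49.3% of 11905 genes that passed) and 39 below (background 48.6%). By the probe sets used, no member was 2-fold different in either direction, where the background was 0.882% higher and 1.11% lower. The weaker probe set of Cox7b, which was not used, was past 2-fold (difference -1.42). At 1.5-fold, 1 member that passed was higher (background 5.44%) and none was lower (background 5.32%). At a smaller threshold, a log2 difference of 0.3, 8 of the 81 were higher (background 18.8%) and 2 were lower (background 18.2%).

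The members' differences were packed more tightly than those of all genes that passed, and less clearly so among genes with a strong signal. Their SD was 0.209 over the 81 that passed, against 0.399 over all genes that passed. The middle 50% of the 81 lay between -0.10 and 0.17, and that of all genes between -0.21 and 0.23. Signals of the set were strong, with 68 of the 89 members at or above the 90th percentile of mean signals, and a strong signal goes with a narrower spread: among the 1924 genes with a signal of 8 or more, the middle 50% lay between -0.18 and 0.15. The middle 50% of the 63 members with such a signal lay between -0.096 and 0.17, not much narrower. Their median wildtype signal was 10.78, against 9.30 for those 1924 genes, so the signals were not matched. Their SD was 0.221, against 0.412 for those 1924 genes, which include the few largest differences of the arrays. At a log2 difference of 0.3, 8 of these 63 members were higher, a share at the background of 12.7%, and 2 were lower (background 14.4%). A member's difference was unrelated in rank to its mean signal (Spearman's rho 0.036 over the 89 members, which share both arrays).

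**Figure D1:**
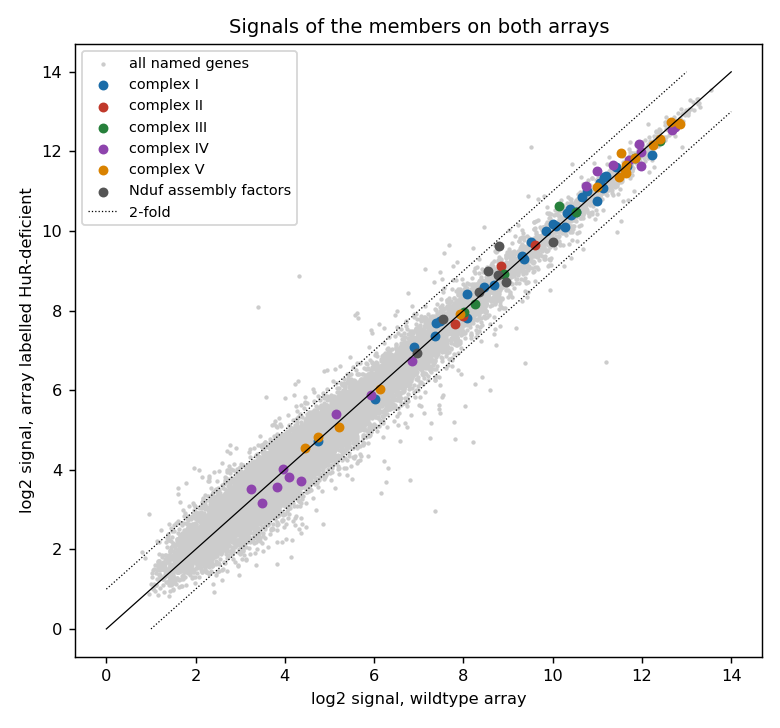
Log2 signals of all named genes (grey) and of the members by complex (colours) on the wildtype array (x axis) and the array labelled HuR-deficient (y axis); the solid line marks equal signals and the dotted lines 2-fold differences. Every coloured point, drawn from the probe set used, lies inside the 2-fold lines, mostly at the upper end of the signal range.

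**Figure D2:**
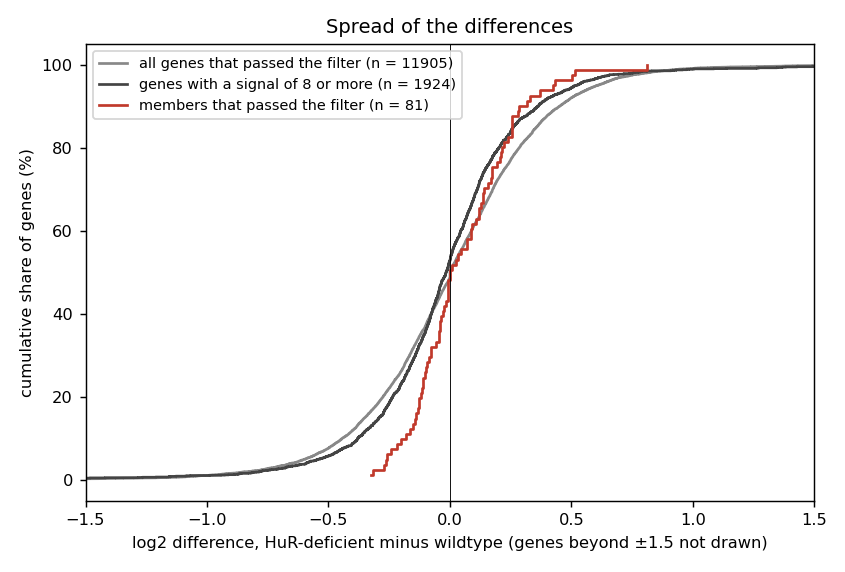
Cumulative share of genes (y axis, %) by log2 difference (x axis) for all 11905 genes that passed the filter, the 1924 with a signal of 8 or more and the 81 members that passed. The members' curve is the steepest on the left side, since none of the 81 lies below -0.33.

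Complex I, the NADH dehydrogenase, had 32 measured subunits, all of which passed the filter. Of these, 19 were higher (background 49.3% of genes that passed) and 12 lower (background 48.6%) in the array labelled HuR-deficient. Their median difference was 0.13, with a range of -0.32 to 0.33. The mean of the same 32 differences was 0.061. At a log2 difference of 0.3, Ndufs7 was past the threshold on the higher side and Ndufc2 on the lower side, and the other 30 lay inside it.

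Among the core subunits, which include those that carry the redox centres, values went both ways. Ndufs7, which holds the last iron-sulfur cluster before ubiquinone, had signals of 8.08 and 8.41 (difference 0.33). Ndufv1, which binds NADH and the flavin, had 7.48 and 7.74 (0.25), and its partner Ndufv2 had 10.32 and 10.46 (0.14). The iron-sulfur protein gene Ndufs1 went the other way, with 8.08 and 7.81 (-0.26). Ndufs3 (7.37 and 7.36, difference -0.0079) and Ndufs8 (10.42 and 10.41, difference -0.0096) gave nearly equal signals. Of the 6 core subunits measured, 3 were therefore higher and 3 lower.

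The 26 accessory subunits surround the core and serve in its assembly and stability. Of these, 16 were higher (background 49.3%), 9 lower (background 48.6%) and Ndufs5 equal. The highest were Ndufv3 (7.40 and 7.68, difference 0.28), Ndufa1 (10.78 and 11.02, difference 0.24) and Ndufa13, also known as Grim19 (9.51 and 9.73, difference 0.22). The lowest were Ndufc2 (12.22 and 11.90, difference -0.32), Ndufa9 (11.00 and 10.75, difference -0.26) and Ndufb11 (6.01 and 5.77, difference -0.24). The other 20 lay between -0.18 for Ndufc1 and 0.21 for Ndufa3. Among them, Ndufab1, the mitochondrial acyl carrier protein, had 6.89 and 7.09 (0.21), and Ndufs4, an accessory subunit whose loss causes mitochondrial disease, had 11.67 and 11.64 (-0.028). Ndufs5 gave 4.73 on both arrays, close to the filter's floor.

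The assembly factors of complex I help to build it and are not part of the finished enzyme. All 8 passed the filter, 5 being higher (background 49.3%) and 3 lower (background 48.6%), with a median of 0.12. Ndufaf3 had the largest difference of all members, with 8.80 and 9.62 (difference 0.81, 1.75-fold higher), and it is the 1 member counted at 1.5-fold. Its protein acts early in assembly together with that of Ndufaf4, and the Ndufaf4 signal lay on the other side, with 10.00 and 9.73 (-0.27), the lowest of the group. Ndufaf6 had 8.56 and 8.99 (0.42), Ndufaf8 7.54 and 7.79 (0.26), Ndufaf5 8.78 and 8.91 (0.12) and Ndufaf1 8.35 and 8.47 (0.12). Ndufaf2 (8.95 and 8.73, difference -0.22) and Ndufaf7 (6.96 and 6.94, difference -0.026) were lower. Ndufaf3 and Ndufaf4 each had a single probe set, so neither difference has a second reading on these arrays.

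Complex II oxidises succinate to fumarate and is encoded entirely in the nucleus. Sdhb, the iron-sulfur subunit, had 8.83 and 9.11 (difference 0.28). Sdha, the flavoprotein with the catalytic site, had 9.61 and 9.65 (0.043). The membrane anchors were lower, Sdhc with 7.98 and 7.87 (-0.12) and Sdhd with 7.82 and 7.66 (-0.17). The catalytic pair was thus higher and the anchor pair lower, with none of the 4 at a difference of 0.3, and the median was -0.038. The mean was 0.0090, and the median with a signal of 8 or more required, which leaves Sdha and Sdhb, was 0.16, so the complex has no settled direction.

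Complex III passes electrons from ubiquinol to cytochrome c. Uqcrc1, a large core protein gene, had 10.13 and 10.63 (difference 0.50), or 1.42-fold. Its partner Uqcrc2 had 10.53 and 10.48 (-0.045), so the pair that forms the matrix-facing core of the enzyme did not share the difference. Uqcrfs1, the Rieske iron-sulfur protein, gave 8.90 and 8.91 (0.010). The remaining members were slightly lower: Uqcrh, the hinge protein, with 11.84 on both arrays after rounding (-0.0067), Uqcr11 with 8.01 and 7.98, Uqcrq with 8.26 and 8.16 and Uqcrb with 12.42 and 12.27 (-0.14). Of the 7 measured, 2 were higher (background 49.3%) and 5 lower (background 48.6%). The median was -0.036 and the mean 0.026.

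Complex IV, cytochrome c oxidase, reduces oxygen. Its 10 widely expressed nuclear subunits included 3 at a difference of 0.3 or more (background 18.8% of genes that passed) and 1 at -0.3 or less (background 18.2%), numbers too small to set apart from the background. Cox5b, the zinc-binding subunit, had 10.99 and 11.50 (difference 0.51). Cox8a had 10.75 and 11.12 (0.37), Cox6a1 11.35 and 11.67 (0.32) and Cox4i1, which binds ATP and regulates the enzyme, 11.94 and 12.20 (0.25). Cox7b lay lowest, with 11.97 and 11.64 (-0.33). Cox7a2 (12.75 and 12.61, difference -0.14) and Ndufa4 (12.67 and 12.54, difference -0.13) were lower, while Cox6b1 (11.71 and 11.78, difference 0.069) and Cox5a (11.98 on both arrays after rounding, difference 0.0018) gave nearly equal signals. Cox7c, a widely expressed subunit, gave only 3.96 and 4.02, below the filter, and a low signal cannot be called absent. Cox7a2l, which joins complexes III and IV into supercomplexes, had 9.05 and 8.92 (-0.13).

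The isoforms of complex IV limited to some tissues had weak signals. Of the 8, 3 passed the filter: Cox7a1 of heart and muscle (6.84 and 6.73, difference -0.11), Cox6a2, also of heart and muscle (5.92 and 5.88, difference -0.041), and Cox4i2, known from lung and low oxygen (5.15 and 5.41, difference 0.25). The testis isoform Cox6b2 had 4.37 and 3.71 (-0.66), just under the floor, and is the only member that would be counted as 1.5-fold lower without the filter (background without the filter 5.36%). Cox7b2, Cox8b, Cox8c and Ndufa4l2 did not reach 4.38 on either array, and their differences ran from -0.34 to 0.29. With these 5 weak isoforms and Cox7c included, 9 members of complex IV were higher and 9 lower, with a median of -0.020. Among the 12 that passed, the median was 0.035 and the mean 0.086.

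Complex V, the ATP synthase, had 11 of 17 subunits below 0 (background 48.6%), by small amounts. The median was -0.080 and the mean, which Atp5d raises, -0.015. Atp5d, which encodes the delta subunit of the rotor stalk, stood apart with 11.53 and 11.97 (difference 0.43). The other 16 lay between -0.20 and 0.11. In the catalytic head, the beta subunit gene Atp5b had 11.64 and 11.67 (0.023) and the alpha subunit gene Atp5a1 12.25 and 12.17 (-0.080). In the rotor stalk beside delta, the gamma subunit gene Atp5c1 had weak signals of 5.20 and 5.08 (-0.13) and the epsilon subunit gene Atp5e 12.85 and 12.69 (-0.15).

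Atp5g1, Atp5g2 and Atp5g3 encode the same mature protein of the proton-carrying ring behind different import signals. Their differences did not run together: Atp5g1 had 4.46 and 4.55 (0.091), Atp5g2 10.99 and 11.09 (0.11) and Atp5g3 11.65 and 11.45 (-0.20), the lowest of the complex. In the peripheral stalk, which holds the head still, Atp5pb had 11.48 and 11.36 (-0.11), Atp5h 11.84 and 11.83 (-0.015) and Atp5j 7.91 on both arrays after rounding (-0.0076). Atp5o of the same stalk had 4.75 and 4.84 (0.088), also close to the floor. The small membrane subunits were Atp5l (12.83 and 12.72, difference -0.11), Atp5j2 (6.13 and 6.03, difference -0.10), Atp5k (12.40 and 12.30, difference -0.095), Atp5mpl (11.62 and 11.54, difference -0.085) and Atp5md (12.65 and 12.74, difference 0.085). By the probe sets used, the delta and epsilon subunits, neighbours in the rotor stalk, lay at opposite sides of 0. A second probe set of Atp5e gave nearly equal signals (12.67 and 12.66, difference -0.0015).

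**Figure D3:**
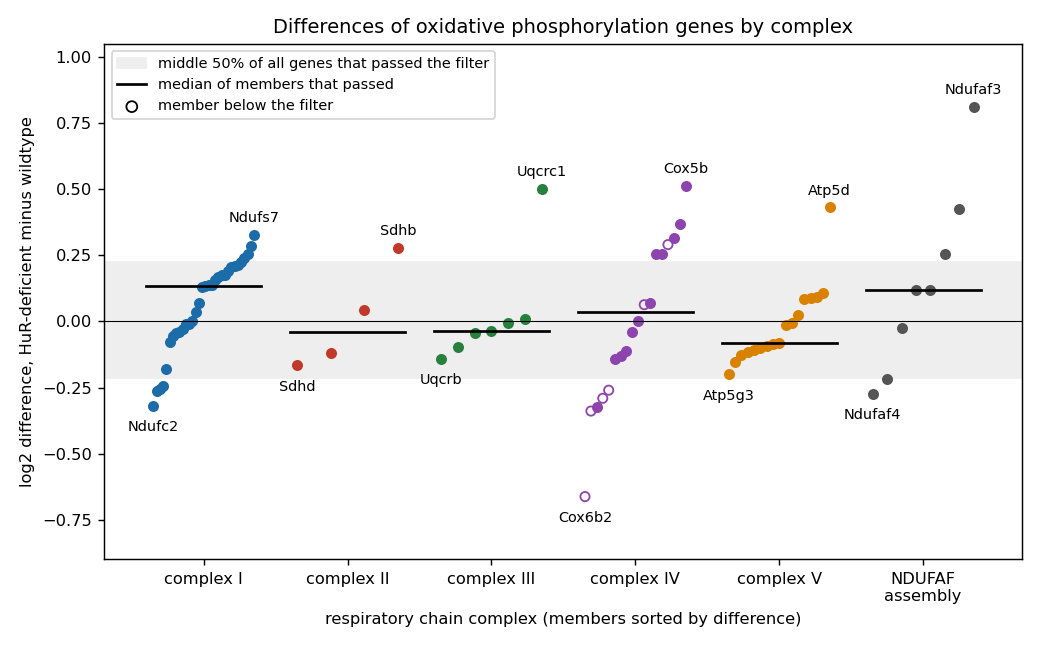
Log2 difference (y axis) of each member, sorted within its complex (x axis); filled points passed the filter on signal, open points did not, black bars are medians of the members that passed, and the grey band holds the middle 50% of all genes that passed. Most points lie inside the band. Of the points above it, Ndufaf3 (0.81), Cox5b (0.51), Uqcrc1 (0.50) and Atp5d (0.43) are the highest. Other points lie below it, the lowest being Cox6b2 (-0.66), and Cox7b (-0.33) among members that passed. Cox7a2l and the 2 pseudogenes are not drawn.

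The 8 members that passed the filter with a difference of 0.3 or more were Ndufaf3, Cox5b, Uqcrc1, Atp5d, Ndufaf6, Cox8a, Ndufs7 and Cox6a1, and the 2 at -0.3 or less were Cox7b and Ndufc2. The higher ones belong to complexes I, III, IV and V and to the assembly factors. The difference between complexes was not tested, since the values come from 1 array per group. Members with any of the 3 promoter motifs had a median difference of -0.0077 (34 members that passed), and the 34 matched members without one had 0.079. The 2 groups spanned -0.27 to 0.50 and -0.33 to 0.81, so they overlapped almost fully.

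Some members had a pair of probe sets, which gives a second reading of the same RNA, though not of another culture. For 9 members there were 2 probe sets, and in 8 of these both differences had the same sign. The probe set with the stronger signal was used throughout. Atp5d gave 0.43 with the probe set used and 0.37 with the other (7.40 and 7.77), and Cox5b gave 0.51 and 0.31 (8.06 and 8.36), so both readings lay above 0. Ndufa11 (0.16 and 0.17), Atp5g2 (0.11 and 0.14) and Ndufa8 (0.21 and 0.10) also stayed on their side. Cox7b was lower by both, but by -0.33 with the probe set used and by -1.42 with the weaker one (7.34 and 5.91), which is past 2-fold. Its size is therefore uncertain by more than its own value, and averaging the probe sets would place Cox7b past 1.5-fold. Ndufa12 gave 0.17 and -0.044, so its direction depends on the probe set, while Atp5e gave -0.15 and -0.0015 and Atp5h -0.015 and -0.33, the latter from a signal below the floor.

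Over the 8 members for which both probe sets passed the filter, the median gap between the 2 differences was 0.13. Over the 441 genes of the array with 2 such probe sets, it was 0.25, and 288 of the 441 had both differences on the same side of 0. The upper quartile of those gaps was 0.46. Of the 81 members that passed, 19 differed between the arrays by more than the median gap and 3, Ndufaf3, Cox5b and Uqcrc1, by more than the upper quartile. The share of all genes past these gaps was not counted. At a difference of 0.3, 18.8% of all genes that passed were higher and 18.2% lower. At 1.5-fold, 5.44% were higher and 5.32% lower. The 19 and the 3 are therefore no excess over all genes. Within a difference of 0.3 lay 87.7% of the 81 members and 63.0% of all genes that passed. The gap measures probe sets on the same arrays and leaves out the spread between cultures. Many of these genes have processed pseudogenes with nearly the same sequence, so a probe set may read more than its named gene. The pseudogenes Atp5c1-ps and Uqcrh-ps1 had signals of at most 3.19, below the filter.

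**Figure D4:**
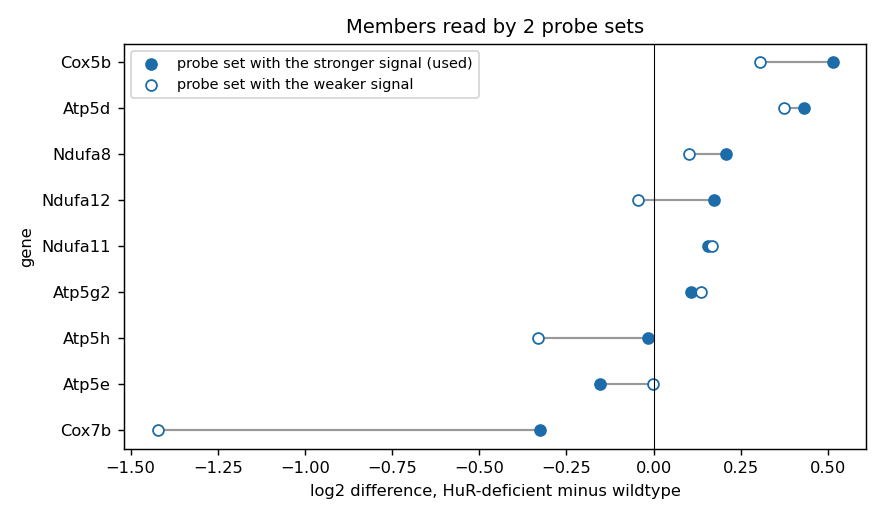
Log2 difference (x axis) by the probe set with the stronger signal (filled) and by the weaker one (open) for the 9 members (y axis) with 2 probe sets. The points of Cox7b lie farthest apart (-0.33 and -1.42), and those of Ndufa12 lie on either side of 0.

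The measured subunits encoded in mitochondrial DNA were all slightly lower in the array labelled HuR-deficient. All 10 had a negative difference, with a median of -0.14, and none reached -0.3. The background below 0 was 48.6% among genes that passed and 54.8% among genes with a mean signal of 12 or more. COX2, ATP6 and ATP8 were not among the 10. COX3, a catalytic subunit of complex IV, had 12.53 and 12.29 (-0.23), and ND2 of complex I had 12.30 and 12.11 (-0.19). The smallest differences were those of ND4 (13.03 and 12.98, difference -0.051) and ND6 (12.59 and 12.55, difference -0.040), also of complex I. CYTB, the mitochondrial subunit of complex III, had 12.44 and 12.31 (-0.14). Mitochondrial mRNAs are cut from shared precursor transcripts, so the 10 are not independent readings.

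Nuclear members at the top of the signal range also leaned lower. Of the 10 members with a mean signal of 12 or more, 8 were lower, with Cox4i1 (0.25) and Atp5md (0.085) higher, and their median was -0.12. Over all 115 genes with such a signal, 54.8% were lower, and over the 96 of them that are neither members nor mitochondrially encoded, 46 were lower, with a median of 0.00075. Ndufc2, Cox7a2, Atp5e, Uqcrb, Ndufa4, Atp5l, Atp5k and Atp5a1 were the 8, with differences from -0.32 to -0.080. The part of signal strength in these differences was not tested. The threshold of 12 was chosen after the values were seen.

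Other genes of the pathway showed the same small scale. Of the carriers and small factors outside the naming rule, Cyc1, the cytochrome of complex III, had 10.78 and 10.97 (0.19), and Cycs, which encodes cytochrome c, 11.85 and 11.82 (-0.028). Atpif1, the inhibitor of the ATP synthase, had 12.34 and 12.39 (0.053), and the complex IV factor genes Higd1a and Higd2a differed by 0.25 and 0.46. Of the 5 that passed, 4 were higher (background 49.3%), a number too small to set apart from the background.

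Assembly factors outside the naming rule differed about as often as genes in general. Their signals were weaker than those of the members, with a median of 6.82 on the wildtype array against 10.13, and weaker signals spread wider. Of 38 measured, all of which passed the filter, 17 were higher (background 49.3%) and 21 lower (background 48.6%), with a median of -0.042. None was 2-fold different, 2 were at least 1.5-fold lower (background 5.32%) and none was at least 1.5-fold higher. These 2 were Nubpl, which delivers iron-sulfur clusters to complex I (6.70 and 5.81, difference -0.89), and Sdhaf1, which does so for complex II (6.74 and 6.14, difference -0.60). Dmac1, an assembly factor of the distal part of complex I (9.58 and 10.05, difference 0.47), and Uqcc2 of complex III (10.89 and 11.33, difference 0.44) lay highest. At a difference of 0.3, 6 of the 38 were higher (background 18.8%) and 9 lower (background 18.2%), against 8 and 2 of the 81 members of the naming rule that passed.

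The 17 measured genes of the tricarboxylic acid cycle and pyruvate dehydrogenase, which supply the electrons, had a median difference of 0. Of these 17, 7 were higher (background 49.3%) and 8 lower (background 48.6%). Cs, citrate synthase, was highest (9.86 and 10.18, difference 0.32) and Dld, dihydrolipoamide dehydrogenase, lowest (8.36 and 7.97, difference -0.39). Pdha1, of pyruvate dehydrogenase, differed by 0.13 and Idh3a, of isocitrate dehydrogenase, by -0.26. The mitochondrial ribosome translates the mitochondrial mRNAs, and its genes were chosen by symbols that begin with Mrpl or Mrps. Of the 70 such genes that passed, 41 were higher (background 49.3%) and 29 lower (background 48.6%), with a median of 0.042. Mrpl4 (0.59) and Mrps34 (0.54) lay highest, and Mrps31 (-0.44) and Mrps36 (-0.91) lowest. Whether the product of each gene, that of Mrps36 included, is part of the ribosome was not checked.

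Of 16 regulators of mitochondrial gene expression that passed, 11 were above 0 (background 49.3%), with a median of 0.061. Polrmt, the mitochondrial RNA polymerase, had 6.79 and 7.28 (0.49), and Nrf1, the factor whose motif was searched above, 5.70 and 6.14 (0.45). Yy1 (5.96 and 5.66, difference -0.30) and Tfam, which packages mitochondrial DNA (6.10 and 5.98, difference -0.13), were lowest. Glycolysis, the other route to ATP, divided: 7 of 13 genes that passed were higher (background 49.3%) and 6 lower (background 48.6%), with a median of 0.0030. Aldoc (4.67 and 5.41, difference 0.74) and Pfkl, of phosphofructokinase (6.17 and 6.86, difference 0.69), were at least 1.5-fold higher (background 5.44%). Pgk1 (12.27 and 11.61, difference -0.66) was at least 1.5-fold lower (background 5.32%), and Hk3 differed by -0.47. Among genes of mitochondrial oxidant defence, the peroxiredoxin gene Prdx3 had 9.36 and 8.77 (-0.59) and the manganese superoxide dismutase gene Sod2 10.64 and 10.57 (-0.073), while Glrx2 (0.25) and Txnrd2 (0.35) were highest, with a median of 0.062 over the 8 that passed.

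**Figure D5:**
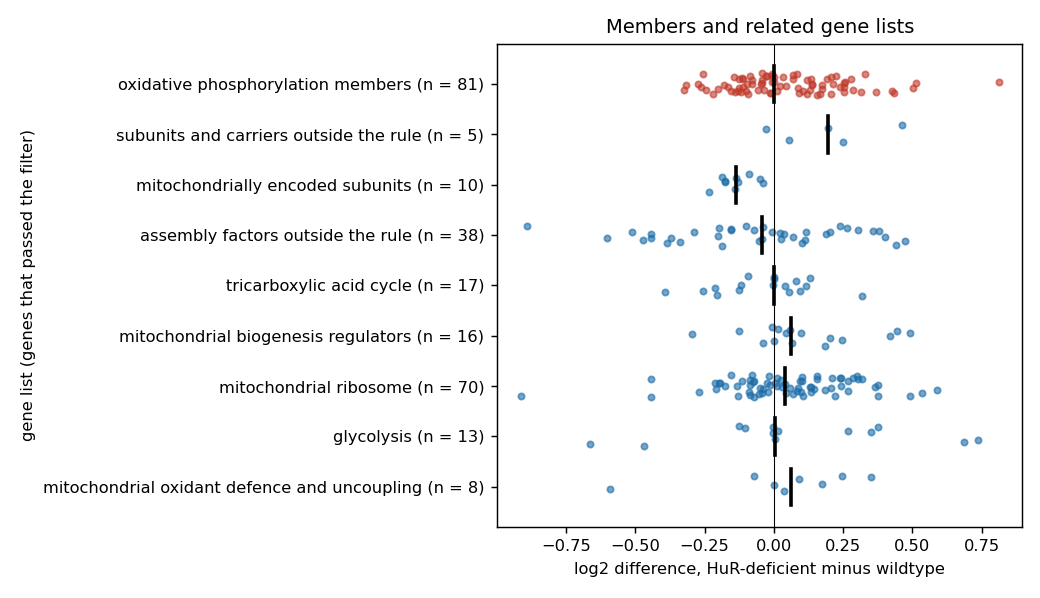
Log2 difference (x axis) of each gene that passed the filter, for the members (red) and 8 related lists (blue, y axis); black bars are medians, and the vertical scatter within a list has no meaning. The members crowd around 0 (median 0.0018), and the 10 mitochondrially encoded genes all lie between -0.23 and -0.040.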

How the data were processed

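The authors deposited 1 column of log2 values per array. RMA is the tool named by the submitters' processing notes, with no version or genome build stated. RMA equalises probe intensities between arrays before summarising them, which hides a change in total mRNA per cell; the array medians were 4.08 and 4.10. Values between 0.434 and 13.77 led to the log2 scale being inferred.

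Of 41345 probe sets, 23521 had 1 gene symbol in the platform's table, 1814 several and 16010 none. Only the first were used, and of several for a gene, that with the highest mean over both arrays was kept. A gene passed the filter when its higher signal reached 4.38, the median of all named values. Members, groups and lists were chosen from general knowledge with earlier results of these data known. All measured core subunits and measured members of complexes II, III and V were named, and elsewhere the 3 highest and 3 lowest per group, members at 1.5-fold, isoforms, members with several probe sets, and the 2 highest and 2 lowest per other list. Other members and genes were named after their values were seen.

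Differences were counted at 2-fold, 1.5-fold and, added after the data were seen, a log2 difference of 0.3, and set beside all genes that passed. No test between conditions was run. The summary steps were tested on simulated data. Alternatives were centring, quantile normalisation of the columns, subtraction of a loess trend (span 0.3), averaged probe sets, other filters, updated symbols, probe sets with several symbols and means. The work used pandas 2.3.3 and numpy 2.4.6 under Python 3.11.15, with statsmodels 0.14.6 for loess and matplotlib 3.10.9 for plots.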

Additional observations from a re-analysis of the deposited data

How the results depend on the processing

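Centring on the median difference of all named genes subtracted 0 and could change nothing, and updating the symbols changed no value. Of 87 values recomputed under the other 10 alternatives, 77 stayed within 0.05 for a median difference or within 1.5 times for a count. The median of all members stayed between 0 and 0.023, and the counts at 2-fold stayed at 0. No alternative used the weaker probe set of Cox7b alone, which was past 2-fold lower. The count of members at least 1.5-fold lower went from 0 to 1 after a further quantile normalisation or with no filter on signal, where Cox6b2 passed the filter. It went to 2 with probe sets averaged, where Cox6b2 passed a recomputed floor and Cox7b moved past 1.5-fold. The count at least 1.5-fold higher went from 1 to 0 when assembly factors, Cox7a2l and pseudogenes were left out, an alternative added after the data were seen, since the 1 is Ndufaf3.

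The median of complex IV was -0.020 with no filter, and that of complex II was 0.16 when a signal of 8 was required, which leaves out the anchors Sdhc and Sdhd. With the mean in place of the median, the values were 0.061 for complex I, 0.026 for complex III, 0.086 for complex IV and -0.015 for complex V. Of 52 recomputed medians or means, 4 changed sign, all in complexes II, III and IV, whose medians lie within 0.04 of 0. No replicate could be left out, since each group has 1 array, so the spread between cultures limits every value.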
